A study of Mus musculus with 6 samples.

Results

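The genes described here are 43 endoplasmic reticulum (ER) genes that fold, modify, translocate or degrade secretory proteins or that sense unfolded protein. They were taken by name from a list that was chosen with earlier results of these data known. All 43 were present among the 24736 genes of the deposited table and among the 12268 genes tested, whose mean over the 6 libraries was at least 1 TPM (transcripts scaled by length and to a fixed total per library). The list was split by known role into 9 chaperones and co-chaperones, 11 oxidoreductases and prolyl isomerases, 3 genes of the lectin folding cycle, 8 genes of translocation and nascent chain processing, 7 genes of ER-associated degradation, 4 sensors of the unfolded protein response, and Nucb2, which encodes a calcium-binding protein. Total RNA depleted of ribosomal RNA was sequenced from intestinal crypts, the epithelial pits that hold stem, progenitor and Paneth cells, isolated with EDTA from the full length of the gut. The study asked how loss of the transcriptional co-repressor MTG16 alters the crypt. There were 3 wild-type (WT) libraries and 3 libraries labelled Mtg16-/- (Mtg16 KO), described as biological triplicates of untreated males of 12 weeks. The study's methods describe Mtg16-/- mice received as a gift, whereas the sample labels call the knockout CRISPR induced, and the difference was not resolved.

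Proteins bound for the gut lumen, the plasma membrane or the blood enter the ER through the SEC61 channel, are folded there by chaperones and disulfide isomerases, and are returned to the cytosol for destruction when folding fails. When unfolded protein builds up, the sensors IRE1, ATF6 and PERK start the unfolded protein response. ATF6 is cleaved to a transcription factor that acts mainly on chaperone genes, IRE1 splices the Xbp1 transcript so that it encodes a factor for translocation and degradation genes, and PERK acts through ATF4. Goblet and Paneth cells, which secrete mucus and antimicrobial peptides, and enterocytes, which export lipoproteins, all depend on this machinery, and IRE1-beta, encoded by Ern2, is restricted to mucosal epithelia.

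The labelled tissue and genotype were checked before the results. The 8 epithelial markers, such as Epcam and Vil1, summed to 9552.0 to 10455.9 TPM in WT and 9223.3 to 10419.4 TPM in the knockout-labelled libraries, whereas 6 fibroblast, 6 smooth muscle and 6 endothelial markers each summed to at most 5.1 TPM in any library. Cbfa2t3, which encodes MTG16 (GRCm38.p6, chromosome 8, 122625136 to 122699332), was not lower in the libraries labelled Mtg16-/-. Its TPM was 3.67, 6.69 and 4.52 in WT and 4.62, 6.43 and 3.23 in the knockout-labelled libraries (log2 fold change -0.06, with a standard error, SE, of 0.27, and adjusted p = 0.937), so these groups overlapped and every direction below rests on the labels. A total over the whole gene does not show whether a deleted part is missing. Pairwise correlations of the libraries across tested genes ranged from 0.931 to 0.980, and the first principal component, which held 47.7% of the variance, had WT replicate 1 at one end and knockout-labelled replicate 3 at the other. Depth cannot be read from TPM and is unknown.

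The libraries labelled Mtg16-/- had lower mean levels of most of the 43 genes, and the differences were largest among the chaperones and disulfide isomerases. In the knockout-labelled libraries 37 of the 43 genes had a lower mean and 6 a higher one, and the median log2 fold change, on log2(TPM + 1), was -0.28 against -0.03 over all tested genes. Summed over the 43 genes, TPM was 8801.1, 7549.2 and 8191.5 in WT and 6038.2, 5578.4 and 5721.0 in the knockout-labelled libraries. The sums did not overlap, with 8180.6 ± 626.0 against 5779.2 ± 235.3 (SD, n = 3 each).

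Only Creld2 passed the test across all genes, at an adjusted p under 0.1, where the background was 4 of 12268 genes, or 0.0326%. At an unadjusted p under 0.05, 17 of the 43 genes were lower and none was higher, or 39.5% lower, beside a background of 8.05% lower and 6.53% higher over all tested genes. The 3 values of the knockout-labelled libraries lay below all 3 WT values for 24 of the 43 genes, or 55.8%, beside a background of 11.1%. They lay above all WT values for 1 gene, Dnajc10, beside a background of 9.94%, and 18 genes overlapped. The list was chosen with earlier results of these data known, so these shares describe it and are not independent of its values. The same backgrounds apply to the counts of the classes and lists below. Without WT replicate 1, 16 genes were lower and 1 was higher at an unadjusted p under 0.05, and 5 passed the adjusted test (Hspa5, Hyou1, Dnajb11, Sdf2l1 and Creld2). In that fit 40 of all 12216 tested genes passed the adjusted test, more than in the fit to all 6 libraries. The backgrounds above are those of the fit to all 6 libraries. None passed the adjusted test when WT replicate 2 or 3 or knockout-labelled replicate 1, 2 or 3 was left out, with 13 to 15 genes, all lower, at an unadjusted p under 0.05. Within a genotype the 43 genes varied little, with a median SD of 0.132 on the log2(TPM + 1) scale against 0.210 for all tested genes. All tested genes were not matched to the 43 by level, neither for this SD nor for the background shares above. In bulk RNA, fewer cells that express a gene and less of its RNA per cell cannot be told apart. With 3 libraries against 3, the exact permutation test of a single gene cannot go below p = 0.1, the value that each of the 25 genes without overlap had.

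**Figure D1:**
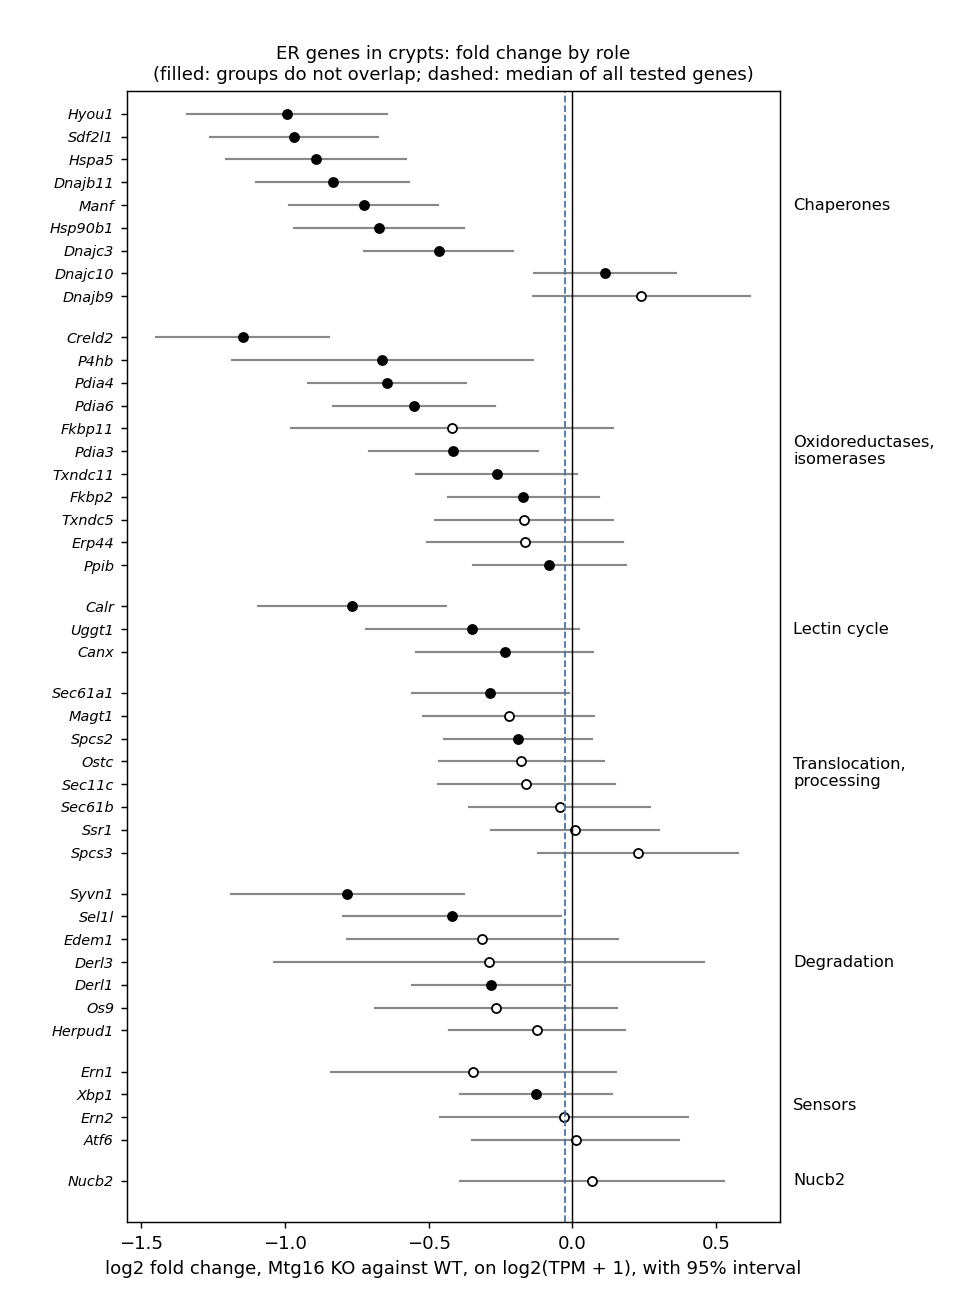
Log2 fold change of each of the 43 ER genes in libraries labelled Mtg16 KO against WT, on the log2(TPM + 1) scale, with its 95% interval from the limma fit, grouped by role. Filled points mark genes whose 3 values in one genotype lie beyond the 3 of the other, and the dashed line is the median of all tested genes at -0.03. Creld2 at -1.15 lies furthest to the left, and 7 of the 9 chaperones lie to the left of the dashed line without overlap.

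The chaperones were the class with the largest shift. Their median log2 fold change was -0.73, and 7 of the 9 were lower at an unadjusted p under 0.05 without overlap between the groups, although none passed the adjusted test. Together they summed to 2102.2, 1917.3 and 2209.5 TPM in WT and 1239.1, 1228.7 and 1187.7 TPM in the knockout-labelled libraries. Every knockout-labelled sum lay well below every WT sum. Hspa5 encodes BiP, the ER member of the HSP70 family and the chaperone that holds the stress sensors inactive. Its TPM was 705.49, 624.08 and 767.65 in WT and 383.56, 382.37 and 359.31 in the knockout-labelled libraries. The knockout-labelled values lay close together at 0.537 times the WT mean (log2 fold change -0.89, SE 0.14, adjusted p = 0.104).

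Several partners of BiP had the same pattern, although the co-chaperones Dnajb9 and Dnajc10, described below, did not. Hyou1, a large HSP70-like protein that exchanges nucleotide on BiP, had a TPM of 181.38, 180.37 and 216.72 in WT and 104.58, 105.30 and 80.30 in the knockout-labelled libraries. Its mean in the latter was 0.502 times that of WT (log2 fold change -0.99, SE 0.15, adjusted p = 0.104). Sdf2l1 encodes a subunit of a complex with the co-chaperone ERdj3 and had values of 98.48, 112.79 and 117.06 TPM in WT and 56.25, 50.22 and 59.72 TPM in the knockout-labelled libraries. These values were separated by a wide gap, with a log2 fold change of -0.97 (SE 0.13, adjusted p = 0.104). Dnajb11, which encodes ERdj3 itself, measured 187.27, 170.58 and 186.09 TPM in WT and 99.78, 95.38 and 108.90 TPM in the knockout-labelled libraries, a log2 fold change of -0.83 (SE 0.12, adjusted p = 0.104). Its lowest WT value was thus above its highest knockout-labelled value. Manf, a secreted ER protein that binds BiP, had 135.06, 128.33 and 142.01 TPM in WT and 80.52, 76.93 and 86.54 TPM in the knockout-labelled libraries, again without overlap (log2 fold change -0.73, SE 0.11, adjusted p = 0.104).

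The ER paralog of HSP90, Hsp90b1 (GRP94), followed BiP in level and direction. Its values were 666.01, 586.11 and 659.94 TPM in WT and 405.90, 408.03 and 384.04 TPM in the knockout-labelled libraries, which gave -0.67 as log2 fold change (SE 0.13, adjusted p = 0.170). The groups were separated by more than the spread within either. Dnajc3 (p58IPK), a co-chaperone that also inhibits PERK, had 69.30, 61.14 and 66.21 TPM in WT against 45.48, 49.36 and 46.71 TPM, a smaller difference without overlap (log2 fold change -0.46, SE 0.11, adjusted p = 0.235). The remaining J-domain co-chaperones did not share this direction. Dnajb9 (ERdj4) had 24.82, 16.70 and 18.21 TPM in WT and 24.26, 22.06 and 23.86 TPM in the knockout-labelled libraries, which overlapped. Dnajc10 (ERdj5), a disulfide reductase, had 34.40, 37.21 and 35.64 TPM in WT and 38.79, 39.08 and 38.35 TPM in the knockout-labelled libraries (log2 fold change 0.11, SE 0.11, adjusted p = 0.627), so that its groups were separated but by little.

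**Figure D2:**
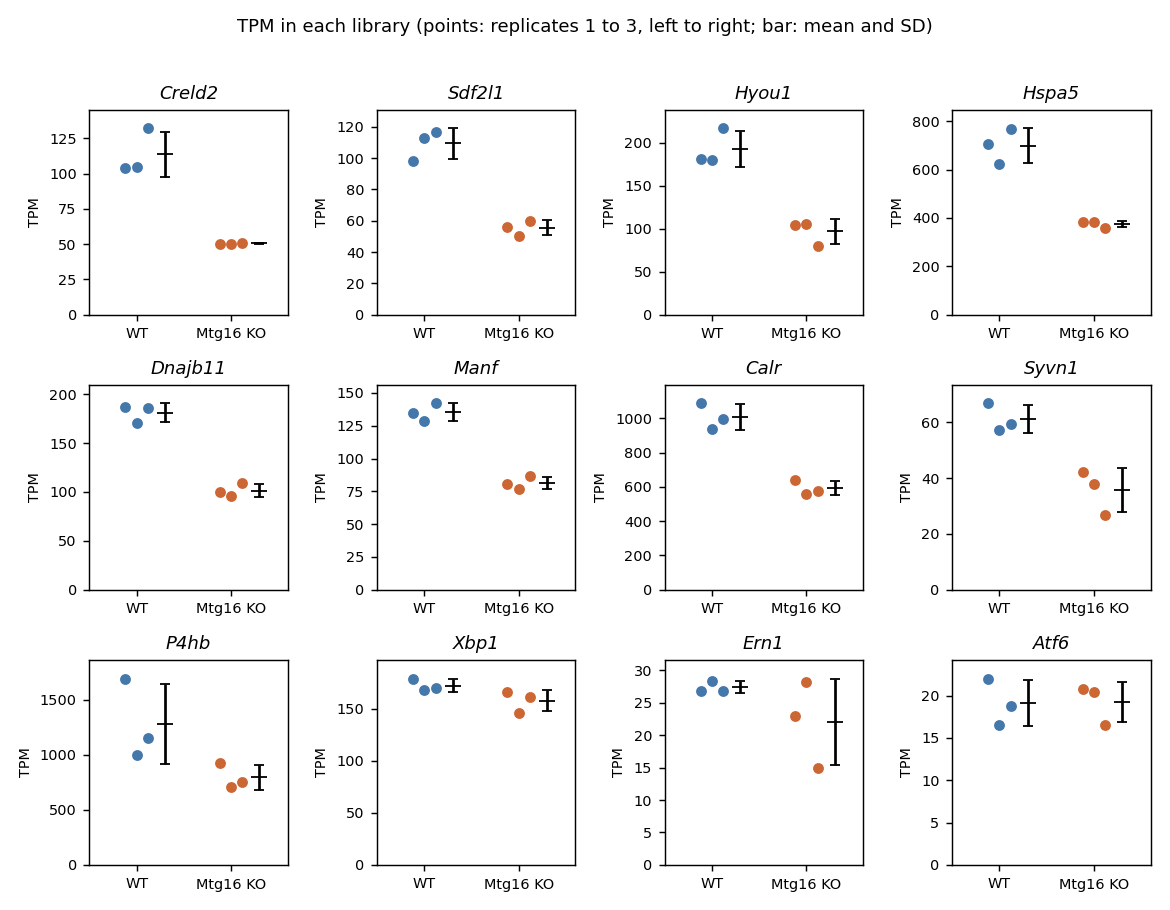
TPM of 12 of the ER genes in each library, with replicates 1 to 3 from left to right in WT (blue) and in libraries labelled Mtg16 KO (orange), and the mean with its SD as a bar, each axis starting at 0. Creld2, Sdf2l1, Hyou1, Hspa5, Dnajb11, Manf, Calr, Syvn1 and P4hb are lower in every knockout-labelled library than in any WT library, Xbp1 is lower by a small margin, and Ern1 and Atf6 overlap.

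Oxidoreductases and prolyl isomerases were lower on average in all 11 cases, with a median log2 fold change of -0.41, which was -0.27 without WT replicate 2. Of these, 5 had an unadjusted p under 0.05 and 8 had no overlap. Creld2, an ER stress-inducible protein with EGF-like domains and disulfide isomerase activity, fell by 1.15 on the log2 scale (SE 0.13, limma adjusted p = 0.0894). Its TPM was 104.19, 104.71 and 132.14 in WT and 50.06, 50.35 and 51.00 in the knockout-labelled libraries. The knockout-labelled values were nearly equal, at 0.444 times the WT mean, and Creld2 ranked 3 by p among all tested genes. The call depended on the libraries in the fit. The adjusted p was 0.196, 0.480 and 0.229 without knockout-labelled replicate 1, 2 or 3, and 0.0429, 0.121 and 0.102 without WT replicate 1, 2 or 3. Over 16 alternative settings the log2 fold change stayed between -1.27 and -1.03, the adjusted p ranged from 0.00476 to 0.480, and Creld2 was called in 6.

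The protein disulfide isomerases, which form and rearrange disulfide bonds, were also lower on average. P4hb, the most abundant of the 43 transcripts, had 1692.48, 995.02 and 1155.98 TPM in WT and 926.23, 705.44 and 752.33 TPM in the knockout-labelled libraries. Its groups were separated by a narrow margin, with WT replicate 1 far above the rest (log2 fold change -0.66, SE 0.23, adjusted p = 0.286). Pdia4 (ERp72) had 172.27, 185.78 and 207.92 TPM in WT and 118.87, 118.93 and 122.24 TPM in the knockout-labelled libraries, a log2 fold change of -0.64 (SE 0.12, adjusted p = 0.165). Pdia6 (P5) had 192.62, 215.30 and 221.93 TPM against 142.20, 132.92 and 153.59 TPM, a log2 fold change of -0.55 (SE 0.12, adjusted p = 0.224). Pdia3 (ERp57), which acts on glycoproteins bound to the lectin chaperones, had 460.09, 389.11 and 411.02 TPM against 318.22, 299.85 and 325.66 TPM, a log2 fold change of -0.41 (SE 0.13, adjusted p = 0.272). None of these 3 overlapped between the groups. The thioredoxin-like Erp44 and Txndc5 overlapped, at log2 fold changes of -0.16 and -0.17, and Txndc11 was lower without overlap at -0.26. Among the prolyl isomerases, Ppib (cyclophilin B) had 380.16, 377.00 and 375.30 TPM in WT and 354.69, 347.03 and 370.15 TPM in the knockout-labelled libraries, a difference without overlap but of only -0.08 on the log2 scale, whose sign turned under quantile normalization. Fkbp2 was lower without overlap at -0.17, and Fkbp11 overlapped at -0.42.

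The lectin cycle retains glycoproteins until they fold. All 3 of its genes were lower without overlap, at a median log2 fold change of -0.35 (-0.20 without knockout-labelled replicate 3), but only Calr had an unadjusted p under 0.05. Calr encodes calreticulin, the soluble lectin chaperone of the ER lumen, and had 1086.78, 938.23 and 993.62 TPM in WT and 638.51, 560.66 and 574.62 TPM in the knockout-labelled libraries. Its highest knockout-labelled value was far below its lowest WT value (log2 fold change -0.77, SE 0.14, adjusted p = 0.165). Canx encodes calnexin, the membrane-bound relative of calreticulin, and had 405.15, 324.83 and 373.59 TPM in WT and 320.78, 316.70 and 296.23 TPM in the knockout-labelled libraries. The gap between its groups was small beside the spread within them (log2 fold change -0.24, SE 0.13, adjusted p = 0.432). Uggt1, the glucosyltransferase that marks unfolded glycoproteins for another round, had a log2 fold change of -0.35 (SE 0.16, adjusted p = 0.364).

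Genes of translocation and nascent chain processing lay closer to the background. Their median log2 fold change was -0.17 (-0.04 under quantile normalization), 6 of 8 were lower on average, and 1 had an unadjusted p under 0.05. That gene, Sec61a1, encodes the pore of the translocation channel and had 255.84, 232.91 and 248.31 TPM in WT and 216.47, 191.55 and 196.81 TPM in the knockout-labelled libraries. The groups did not overlap, at 0.821 times the WT mean (log2 fold change -0.28, SE 0.12, adjusted p = 0.325). Sec61b, a small subunit of the same channel, had 203.34, 236.83 and 207.58 TPM in WT and 214.36, 184.06 and 230.89 TPM in the knockout-labelled libraries, fully intermixed (log2 fold change -0.04, of the opposite sign under quantile normalization). Ssr1 of the translocon-associated protein complex was at 0.01. The signal peptidase genes Spcs2, Sec11c and Spcs3 had log2 fold changes of -0.19, -0.16 and 0.23, and of these only Spcs2 had no overlap. Ostc and Magt1, subunits of the oligosaccharyltransferase that attaches glycans, overlapped at -0.18 and -0.22.

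ER-associated degradation was mixed, with a median log2 fold change of -0.29 (-0.16 without knockout-labelled replicate 3), all 7 genes lower on average and 3 of 7 without overlap. Syvn1 encodes HRD1, the ubiquitin ligase of the pathway. It had 66.83, 57.32 and 59.35 TPM in WT and 42.20, 37.84 and 26.97 TPM in the knockout-labelled libraries, with replicate 3 the lowest (log2 fold change -0.78, SE 0.18, adjusted p = 0.225). Its adaptor Sel1l had 67.21, 47.95 and 56.33 TPM in WT and 44.86, 46.39 and 35.87 TPM in the knockout-labelled libraries. A gap of less than 2 TPM separated these groups (log2 fold change -0.42, SE 0.16, adjusted p = 0.312). Derl1, a channel component, had 73.23, 61.09 and 62.03 TPM against 52.56, 54.48 and 53.26 TPM, likewise without overlap (log2 fold change -0.28, SE 0.12, adjusted p = 0.331). Os9, a lectin that delivers misfolded glycoproteins to HRD1 and the most abundant of these transcripts on average, overlapped. It had 110.60, 74.12 and 92.84 TPM in WT and 88.04, 77.44 and 63.83 TPM in the knockout-labelled libraries (log2 fold change -0.27, SE 0.18, adjusted p = 0.508). Herpud1 and Edem1 overlapped at log2 fold changes of -0.12 and -0.31. Derl3 was nearly silent, with 1.01, 3.15 and 1.84 TPM in WT and 2.06, 1.31 and 0.84 TPM in the knockout-labelled libraries.

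None of the 4 sensors had an unadjusted p under 0.05, and their median log2 fold change of -0.08 became 0.03 under quantile normalization and 0.01 without knockout-labelled replicate 3. Xbp1 had 179.04, 167.92 and 169.57 TPM in WT and 166.21, 146.09 and 161.55 TPM in the knockout-labelled libraries. These groups were separated by less than 2 TPM (log2 fold change -0.13, SE 0.11, adjusted p = 0.613, 95% interval -0.39 to 0.14), and the sign turned under quantile normalization. Gene-level TPM counts spliced and unspliced Xbp1 together, so its activation by IRE1 was not measured. Atf6 had 22.02, 16.53 and 18.81 TPM in WT and 20.81, 20.43 and 16.52 TPM in the knockout-labelled libraries, intermixed at a log2 fold change of 0.01 (95% interval -0.35 to 0.37) that was below 0 without WT replicate 2 or knockout-labelled replicate 1 or 2. Ern1, which encodes IRE1-alpha, had 26.85, 28.44 and 26.85 TPM in WT and 23.02, 28.20 and 14.92 TPM in the knockout-labelled libraries. Only knockout-labelled replicate 3 was far below WT (log2 fold change -0.34, SE 0.21, adjusted p = 0.471). Ern2, at 27.49, 36.02 and 27.06 TPM in WT and 31.05, 35.09 and 23.12 TPM in the knockout-labelled libraries, reached the level of Ern1 and overlapped (log2 fold change -0.03, 95% interval -0.46 to 0.40, of the opposite sign under quantile normalization, after removal of defensin genes, and without WT replicate 2 or knockout-labelled replicate 3). Nucb2 had 8.18, 10.27 and 13.07 TPM in WT and 13.08, 9.48 and 10.35 TPM in the knockout-labelled libraries, also intermixed, and its log2 fold change of 0.07 was below 0 without WT replicate 1 or knockout-labelled replicate 1. The intervals of these genes leave room for changes in either direction.

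**Figure D3:**
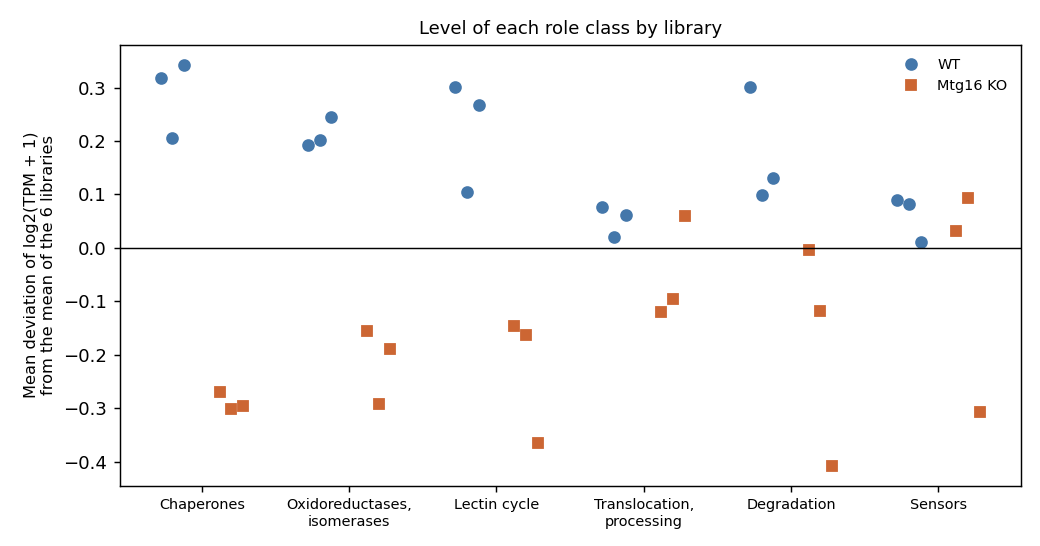
Mean deviation of log2(TPM + 1) from the mean of the 6 libraries for the genes of each role class, 1 point per library (blue circles WT, orange squares Mtg16 KO by label, replicates 1 to 3 from left to right). WT lies above and Mtg16 KO below 0 in all 6 libraries for chaperones, oxidoreductases with isomerases, the lectin cycle and degradation, and the groups overlap for translocation genes and for the sensors.

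The same split was seen by library. For the chaperones the mean deviation from the average library was 0.32, 0.21 and 0.34 in WT and -0.27, -0.30 and -0.30 in the knockout-labelled libraries. For translocation genes the values were 0.08, 0.02 and 0.06 in WT and -0.12, -0.10 and 0.06 in the knockout-labelled libraries. Chaperones were thus separated by far more than their spread, whereas knockout-labelled replicate 3 reached the WT range for translocation genes and the lowest value of all, -0.41, for degradation genes. Part of the 43 genes were also regrouped by the factor they are best known to answer to, and the rest were placed in neither branch. The 10 genes of the ATF6 branch had a median log2 fold change of -0.75 and 9 of them an unadjusted p under 0.05. The 8 genes of the XBP1 branch were Dnajb9, Edem1 and the translocation genes Sec61a1, Sec61b, Ssr1, Sec11c, Spcs2 and Spcs3. Most of this group thus repeats the translocation class. It had a median of -0.10, which was 0.01 under quantile normalization, and 1 gene had an unadjusted p under 0.05. Fold changes in the XBP1 group ran from -0.31 to 0.24, so genes with larger shifts, such as Syvn1 at -0.78, Pdia6 at -0.55 and Dnajc3 at -0.46, were not in it. The branches share targets in vivo, and both medians depend on which genes were assigned. The genes were assigned to branches from general knowledge with earlier results of these data known, so the regrouping is a description and not independent of their values.

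Promoter sequence was a feature that the gene list did not use. The best known DNA element of the unfolded protein response is the ER stress response element, ERSE, which is read by NF-Y and ATF6 and consists of CCAAT, a gap of 9 bases and CCACG. RefSeq promoters of GRCm38.p6, from 250 bases before to 50 bases after the start, were held for 34 of the 43 genes, and both strands were searched. The start used equalled that of the listed gene position in 28 of the 34 and differed in the rest. An ERSE was present in 9 of these 34 promoters (26.5%) and in 37 of all 27025 promoters (0.137%). The list was built around genes of this response, so the difference in shares is not independent of the choice of genes. Each match is shown with 8 bases on either side, read 5' to 3' on the strand of the gene, with CCAAT and CCACG, or their reverse complements ATTGG and CGTGG, in capitals.
Creld2, chr15:88819512-88819546, plus strand: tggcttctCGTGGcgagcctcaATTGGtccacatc
Hspa5, chr2:34772017-34772051, plus strand: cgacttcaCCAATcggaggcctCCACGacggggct
Syvn1, chr19:6046524-6046558, plus strand: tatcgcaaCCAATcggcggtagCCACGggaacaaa
Calr, chr8:84847067-84847101, minus strand: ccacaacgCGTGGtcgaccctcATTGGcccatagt
Hsp90b1, chr10:86705630-86705664, minus strand: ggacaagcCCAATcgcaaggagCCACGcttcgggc
Hsp90b1, chr10:86705525-86705559, minus strand: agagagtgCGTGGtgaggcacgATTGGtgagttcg
Pdia6, chr12:17266483-17266517, plus strand: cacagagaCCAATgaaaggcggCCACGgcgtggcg
Dnajc3, chr14:118937819-118937853, plus strand: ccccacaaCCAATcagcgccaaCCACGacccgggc
Derl3, chr10:75893234-75893268, plus strand: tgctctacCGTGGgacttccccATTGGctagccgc
Canx, chr11:50325792-50325826, minus strand: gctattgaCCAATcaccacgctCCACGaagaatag

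The motif lay on the sense strand, CCAAT first, in Hspa5, Syvn1, Pdia6, Dnajc3 and Canx, and in the opposite orientation in Creld2, Calr and Derl3. Hsp90b1 held 1 match in each orientation. Counted from the start site at 0, the matches began between -212, in Hsp90b1, and -44, in Syvn1. The bases of the gap differed between genes, and the ones shown in capitals are those the search required. All 9 genes with an ERSE were lower on average in the knockout-labelled libraries, 8 without overlap and 7 with an unadjusted p under 0.05, and their median log2 fold change was -0.67. The exceptions to the larger shifts were Canx at -0.24 and the nearly silent Derl3 at -0.29. The 25 genes with a promoter entry and no ERSE had a median of -0.22, with 21 lower, 12 lower without overlap and 6 with an unadjusted p under 0.05. Apart from Syvn1 and Derl3, the genes with an ERSE were chaperones, oxidoreductases or genes of the lectin cycle. Those classes together had a median of -0.46 and the other classes -0.18, and role and ERSE were not tested apart. A match describes these letters and does not show that a factor was bound there.

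The shorter ERSE-II, which consists of ATTGG, 1 base and CCACG, was found in 2 of the 34 promoters (5.88%) and in 12 of all promoters (0.0444%). Both matches are shown because the genes that carry them lay far apart in fold change.
Herpud1, chr8:94386369-94386395, plus strand: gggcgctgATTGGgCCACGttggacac
Dnajb11, chr16:22857844-22857870, plus strand: cggcggcgATTGGcCCACGcctggctg
Dnajb11, whose match lay 7 to 17 bases after the start, had a log2 fold change of -0.83, and Herpud1, whose match began at -52, had -0.12. The core of the unfolded protein response element, TGACGTG, was present in Hspa5, Txndc5, Txndc11 and Fkbp11 (11.8% of the 34 promoters against 2.22% of all), whose log2 fold changes were -0.89, -0.17, -0.26 and -0.42. The ATF4 core TGATGCAA was present in Herpud1 alone (2.94% against 1.03%). No match shared bases with a match to another of these motifs in these 34 promoters. Large shifts also occurred without a match, as in Sdf2l1 at -0.97. Hyou1 and Manf had no promoter entry.

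Outside the 43 genes, few genes with an ERSE could be tested, and only their median lay near the background. Of 28 other genes with an ERSE, 21 were in the table and 7 were tested. Their log2 fold changes ran from -0.63 to 0.17, with a median of -0.08. Xlr3a at -0.58 and Spats2l at -0.39 were among the low ones but overlapped. Of the 7 genes, 6 were lower on average and 1 had an unadjusted p under 0.05. That gene was Alg12, a mannosyltransferase that builds the glycan attached to proteins in the ER. It lies on chromosome 15 from 88805243 to 88819318, 327 bases from Creld2 and in the opposite direction, so that both promoters hold the same ERSE. The 250 bases upstream of Creld2, chr15:88819396-88819645 on the plus strand, are shown with the ERSE that they share with the Alg12 promoter in capitals.
Creld2 upstream: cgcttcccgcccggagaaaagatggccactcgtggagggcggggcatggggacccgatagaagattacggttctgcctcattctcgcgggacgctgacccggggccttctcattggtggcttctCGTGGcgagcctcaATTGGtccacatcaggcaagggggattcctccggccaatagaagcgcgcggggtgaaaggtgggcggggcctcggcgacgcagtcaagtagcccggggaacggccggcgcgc
Alg12 had 17.86, 15.89 and 15.65 TPM in WT and 11.23, 9.85 and 9.83 TPM in the knockout-labelled libraries. The groups were well separated, and its log2 fold change of -0.63 (adjusted p = 0.208) was smaller than that of Creld2. Alg12 was named after its values were seen.

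**Figure D4:**
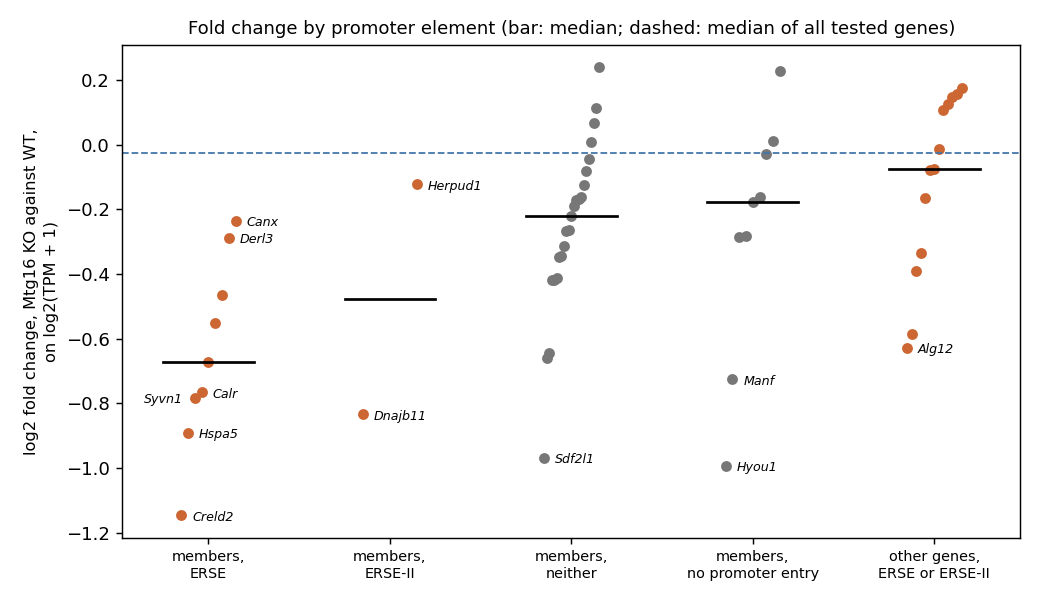
Log2 fold change of each gene, on the log2(TPM + 1) scale, by the element in its promoter: ER genes with ERSE, with ERSE-II, with neither, or without a promoter entry, and other tested genes with ERSE or ERSE-II. Bars are medians, and the dashed line is the median of all tested genes. ER genes with ERSE centre on -0.67, those with neither on -0.22, and the 13 other genes on -0.08.

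Other ER genes, chosen by role from general knowledge, shifted less. Of 113 such genes 107 were tested, and 81 were lower on average and 26 higher, with a median log2 fold change of -0.14 (-0.08 under quantile normalization). None passed the adjusted limma test. At an unadjusted p under 0.05, 23 were lower (21.5%, beside 8.05% of all tested genes) and 2 higher. Of the 23 lower genes, 12 belonged to the list of ER to Golgi transport. Without overlap, 35 were lower (32.7%, beside 11.1%) and 2 higher. Other folding genes had a median of -0.14, with 4 of 24 tested genes lower (16.7%) and 1 higher at an unadjusted p under 0.05. The extremes were Ero1lb, an oxidase that recharges disulfide isomerases, and Rcn1, a calcium-binding protein of the ER lumen. Ero1lb had 13.70, 8.19 and 11.25 TPM in WT and 7.16, 6.90 and 6.12 TPM in the knockout-labelled libraries, a log2 fold change of -0.62 without overlap. Rcn1 had 5.34, 6.57 and 5.51 TPM in WT and 8.04, 8.58 and 8.59 TPM in the knockout-labelled libraries, a log2 fold change of 0.47, also without overlap. The glucosidase II subunits Ganab and Prkcsh, which trim glycans in the lectin cycle, were lower without overlap at -0.37 and -0.34.

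Other translocation genes had a median log2 fold change of -0.10, and 2 of 28 had an unadjusted p under 0.05, both lower. That share of 7.14% was near the 8.05% of all tested genes. The 2 genes were Ssr2 and Rpn1, at -0.30 each. Ssr2, of the translocon-associated protein complex, had 334.87, 350.96 and 377.65 TPM in WT and 299.52, 265.71 and 298.77 TPM in the knockout-labelled libraries. Ssr4, of the same complex, had the highest fold change of the list at 0.14, with 175.70, 188.76 and 188.61 TPM in WT and 195.69, 185.26 and 232.25 TPM in the knockout-labelled libraries. The former did not overlap and the latter did. Other degradation genes had a median of -0.09, with 2 of 19 tested genes lower at an unadjusted p under 0.05 (10.5%, beside 8.05%). The list ranged from Aup1 at -0.38 (157.76, 148.87 and 161.33 TPM in WT and 126.14, 118.91 and 113.58 TPM in the knockout-labelled libraries, without overlap) to Erlec1 at 0.33 (17.77, 12.20 and 12.09 TPM in WT and 18.62, 18.23 and 15.91 TPM, overlapping).

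Genes that carry cargo from the ER to the Golgi apparatus moved more than those of translocation. Of 25 genes 21 were lower on average, and the median was -0.39, beside -0.28 for the 43. At an unadjusted p under 0.05, 12 were lower (48.0%, beside 39.5% of the 43), and 15 were lower without overlap (60.0%, beside 55.8%). The lowest was Sec24d, a cargo-binding subunit of the COPII coat, at -1.05, with 133.30, 59.96 and 70.29 TPM in WT and 52.33, 35.54 and 33.01 TPM in the knockout-labelled libraries. WT replicate 1 was far above the others, and the groups were still separated. Cargo receptors and their partners were among the 12, with Lman2 at -0.48, Mcfd2 at -0.71, Lman1 at -0.37 and Surf4 at -0.54. The highest of the list was Tmed3 at 0.07, with 44.65, 50.29 and 45.94 TPM in WT and 53.87, 46.34 and 47.85 TPM in the knockout-labelled libraries, which overlapped. Among 11 other sensors and stress factors the median was -0.25. Creb3l3, an ER-bound transcription factor of enterocytes and hepatocytes, was the lowest at -1.19, with 208.25, 76.79 and 105.47 TPM in WT and 75.50, 48.60 and 37.82 TPM in the knockout-labelled libraries. Mbtps2, the site-2 protease that releases ATF6, was the highest at 0.43, with 5.86, 4.89 and 6.32 TPM in WT and 6.41, 9.28 and 8.45 TPM in the knockout-labelled libraries. Neither overlapped, but each was separated by a narrow margin.

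**Figure D5:**
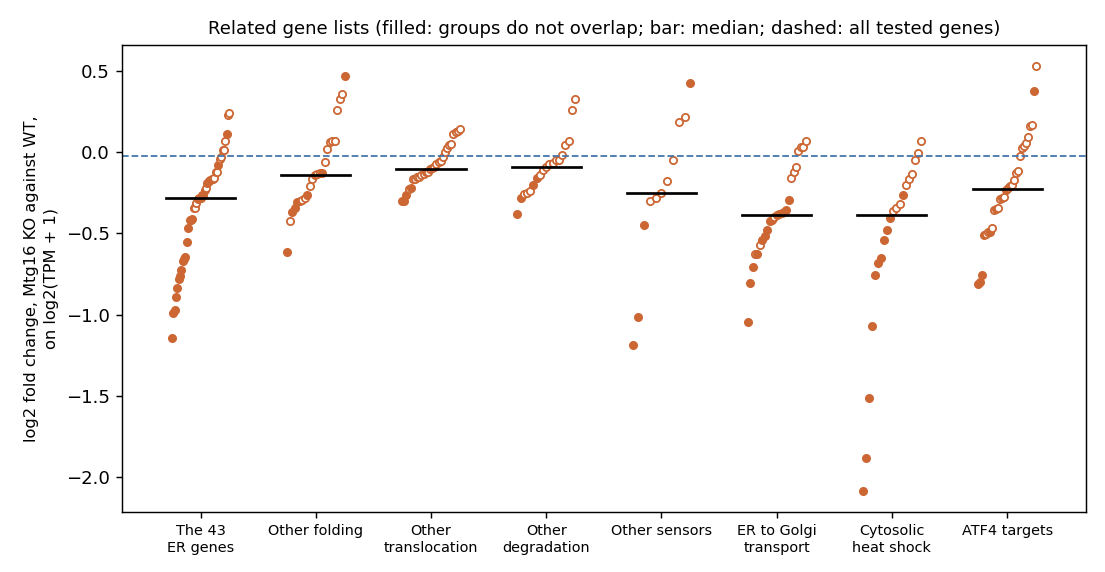
Log2 fold change of each tested gene, on the log2(TPM + 1) scale, in the 43 ER genes, 5 lists of other ER genes, cytosolic heat shock genes and ATF4 targets. The heat shock list includes the mitochondrial Hspd1 and Hspe1. Filled points mark genes without overlap between the genotypes, bars are medians, and the dashed line is the median of all tested genes. Medians are -0.28 for the 43 genes, between -0.39 and -0.09 for the other ER lists, -0.39 for heat shock genes and -0.23 for ATF4 targets.

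Related stress programmes from the same fit are given side by side, without a test between lists. Heat shock genes of the folding machinery outside the ER had a median log2 fold change of -0.39, which was -0.24 without WT replicate 3. Most are cytosolic, but the list also counts Hspd1 (-0.32) and Hspe1 (-0.16), which encode mitochondrial chaperones. Of 20 tested genes 19 were lower on average, and none passed the adjusted limma test. At an unadjusted p under 0.05, 9 were lower (45.0%, beside 8.05% of all tested genes), and 11 were lower without overlap (55.0%, beside 11.1%). The lowest was Hspa1b at -2.08 (7.21, 8.51 and 15.41 TPM in WT and 2.07, 1.66 and 1.06 TPM in the knockout-labelled libraries, adjusted p = 0.104), a value that is uncertain because Hspa1b shares reads with its near-identical copy Hspa1a. The highest was Dnaja2 at 0.07, with 107.98, 98.77 and 112.75 TPM in WT and 104.09, 107.64 and 123.52 TPM in the knockout-labelled libraries, which overlapped. Targets of ATF4, the factor downstream of PERK, had a median of -0.23 (-0.13 without WT replicate 2), with 22 of 30 lower on average. At an unadjusted p under 0.05, 8 were lower (26.7%) and 1 was higher, beside a background of 8.05% lower and 6.53% higher. The lowest was Phgdh, an enzyme of serine synthesis, at -0.81, with 22.76, 43.30 and 25.50 TPM in WT and 15.33, 16.46 and 17.13 TPM in the knockout-labelled libraries, without overlap. Nupr1 was the highest at 0.53 and overlapped, with 29.73, 47.87 and 29.88 TPM in WT and 63.53, 52.87 and 39.22 TPM in the knockout-labelled libraries, and it is also in the Paneth cell list. The range of fold changes was wider in heat shock genes, from -2.08 to 0.07, than in the 43 ER genes, from -1.15 to 0.24.

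Markers of crypt cell types differed between the same libraries, and their part in the ER result was not tested. Paneth cell markers were higher on average in 10 of 10 cases, with a summed level of 9314.7 to 20466.1 TPM in WT and 25173.0 to 30883.2 TPM in the knockout-labelled libraries. Stem cell markers were higher in 10 of 10 cases, at 915.1 to 1562.5 TPM in WT and 1687.5 to 2249.4 TPM in the knockout-labelled libraries, and enteroendocrine markers in 10 of 10, at 419.0 to 516.7 TPM and 581.4 to 683.4 TPM. Enterocyte markers were lower in 10 of 10 cases, at 11279.1 to 33456.6 TPM in WT and 5750.3 to 11422.2 TPM in the knockout-labelled libraries. These enterocyte sums overlapped, and WT replicate 1 held the highest. Goblet cell markers were lower in 5 of 10 cases, and their sums overlapped. Of 9 plasma cell markers 7 were in the table, at sums of 81.7 to 114.2 TPM in WT and 93.1 to 125.1 TPM in the knockout-labelled libraries. Most of that came from Sdc1, at 65.27 to 87.82 TPM, while Mzb1 was at most 4.42 TPM in any library. T cell markers, 6 of 8 in the table, were lower in 6 of 6 cases and their sums overlapped. Defensin transcripts of Paneth cells take a large share of TPM, and after they were removed and the libraries rescaled the median of the 43 genes was -0.24, with 15 genes at an unadjusted p under 0.05.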

How the data were processed

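RNA sequencing was available for 6 libraries, 3 WT and 3 labelled Mtg16-/-. The authors trimmed reads, aligned them to mm10 and estimated expression per gene, and deposited TPM values with 2 decimals; the submitters' processing notes name cutadapt 1.9.1, STAR 2.5.2a, RSEM 1.3.0 and DESeq2 1.12.3. TPM sums to the same total in every library, so depth is unknown and no count test was possible.

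TPM was transformed as log2(TPM + 1). Genes averaging at least 1 TPM (12268) were tested with limma 3.58.1 (moderated test with intensity trend, statmod 1.5.0, R 4.3.3), with Benjamini-Hochberg adjustment and calls at an adjusted p under 0.1. Fold changes on this scale understate those of low genes. Scripts were tested on simulated data. The members and lists were chosen with earlier results of these data known. Per-library values are given for Hspa5, the sensors, members with an unadjusted p under 0.05 and no overlap, the highest member of each class, and the extremes of each other list; other values shown were added afterwards. The check of whether equal replicate numbers pair libraries gave correlations of 0.429, 0.0753 and 0.237, of which the second is below the limit of 0.1, so samples were not paired. Positions and promoters are from RefSeq GRCm38.p6. Alternatives were another pseudocount, filter, scaling, moderation, library weights, block, threshold and each library left out. Retention signals of the proteins were not analysed here.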

Additional observations from a re-analysis of the deposited data

How the results depend on the processing

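No called value changed its sign under any alternative, whereas small uncalled differences did: those of Ppib, Sec61b, Xbp1 and Ern2 under quantile normalization, of Ern2 after removal of defensin genes, of Ern2 (0.14) and Nucb2 (-0.18) with array weights, and of Atf6, Ern2, Nucb2 and the sensor median with some library left out. The counts of genes at an unadjusted p under 0.05 (13 to 22 of the 43) and without overlap (21 to 29), both directions together, stayed within 1.5 times of those reported. At an unadjusted p under 0.05, 1 gene was higher with array weights and 1 without WT replicate 1. The number of the 43 genes that passed the adjusted test did not. It was 1 with a pseudocount of 0.1, but 0 without a filter, 3 at a mean TPM of at least 5, 0 with median-ratio rescaling, 0 with quantile normalization, 0 after rescaling without defensin genes, 0 without an intensity trend, 4 with robust moderation, 14 with array weights, 0 at an adjusted p under 0.05, and 0 to 5 with each library left out. Over all tested genes the calls were 4 with a pseudocount of 0.1 and then 0, 15, 1, 1, 0, 0, 20, 855 and 0 in the same order, and 0 to 40 with each library left out. Of the other ER genes 16 passed with array weights. The median log2 fold change of the 43 genes was -0.20 with quantile normalization and -0.34 to -0.22 with each library left out, and that of ATF4 targets was -0.26 to -0.13. With the replicate number as a block, which the labels do not show to be shared handling, 1201 genes passed in all, 14 of the 43 and 13 of the other ER genes, and 5 of 6 libraries correlated best with the library of their own number. The cause of these changes was not tested. With TPM alone the depth is unknown, and 3 libraries per genotype limit the precision of every value.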
